A study of Mus musculus with 14 samples.

Results

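The 84 genes described here encode the proteins of the cytosolic ribosome in mouse. They are the protein-coding genes of the count table whose symbol is Rpl or Rps followed by a digit, or Rplp0, Rplp1, Rplp2 or Rpsa, with the Rps6k kinases and the -ps pseudogenes left out. They are 84 of 37409 genes in the table, 50 with large-subunit symbols and 34 with small-subunit symbols, on 19 chromosomes. The rule reads symbols only, so it also takes in paralogs (Rpl3l, Rpl7l1, Rpl22l1, Rpl36al, Rpl39l, Rps27l) and Rps19bp1, which encodes a protein that binds RPS19 and is no subunit.

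RNA came from subcutaneous tumours in C57BL/6 mice, sequenced as 14 libraries. The untreated group was collected at day 0 (n = 3). The other groups were collected at day 7 after an injection into the tumour: 5% dextrose in water (D5W, n = 3), 2E'/PTX/siNeg (siNeg, n = 4) or 2E'/PTX/siPD-L1 (siPD-L1, n = 4), where 2E' is read as the polymer that the title calls immunoactive, PTX as paclitaxel, siNeg as a negative-control siRNA and siPD-L1 as an siRNA to the immune checkpoint ligand PD-L1. The age and sex of the mice are not given in the labels. Both siRNA groups therefore carry the polymer and the drug, and D5W carries neither. No group is untreated at day 7, so day and injection cannot be told apart against day 0. The labels give 2 names for the tumour cells, B16F10 melanoma in the protocol and CT26 colon carcinoma in the cell type field. The expressed genes go with the first: 6 melanocyte lineage genes summed to between 16600 and 20500 counts per 1 M TMM-scaled counts (CPM) in every library, and 6 intestinal epithelial genes to between 7.05 and 9.8 CPM. The labels do not say that each library is a separate mouse, so the p-values measure the spread between these samples.

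The ribosome consists of a large and a small subunit, each built from ribosomal RNA and a fixed set of proteins. Most ribosomal protein mRNAs are short, abundant and begin with a C followed by a run of pyrimidines, the terminal oligopyrimidine (TOP) element, through which LARP1 and the growth kinase mTOR control their translation and stability. A few of the proteins also act off the ribosome: RPL5 and RPL11 bind MDM2 with 5S RNA when assembly fails, and RPS6 is the classical phosphorylation target of the S6 kinases.

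The starts of 6 genes are shown because their windows hold or lack a tract like that element. The genes also include those with the largest and the smallest differences below. Each is 30 bases of GRCm38.p6, from 10 bases before to 20 bases after the RefSeq start, on the gene's strand. Capitals mark the longest run of a C followed by at least 4 further pyrimidines that starts within 10 bases of the RefSeq start. Shorter runs of this kind, as in the windows of Rps27 and Rps27rt, are left in lower case. The windows are chr3:90213629-90213658 (minus strand) for Rps27, chr9:114982720-114982749 (minus) for Rps27rt, chr4:86857348-86857377 (minus) for Rps6, chr7:141447641-141447670 (plus) for Rplp2, chr10:128549149-128549178 (minus) for Rpl41 and chr9:64173377-64173406 (plus) for Rpl4.
Rps27: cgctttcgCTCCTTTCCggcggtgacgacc
Rps27rt: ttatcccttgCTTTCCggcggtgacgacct
Rps6: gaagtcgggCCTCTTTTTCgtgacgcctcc
Rplp2: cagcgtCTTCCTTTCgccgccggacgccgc
Rpl41: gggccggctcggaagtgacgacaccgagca
Rpl4: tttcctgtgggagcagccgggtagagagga

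RefSeq gave a start for 64 of the 84 genes. Such a tract lay at the start of 36 of them (56.2%), against 30.7% of all 27025 genes with a RefSeq start. Where a gene had several starts, the one nearest the GENCODE start was taken for members. For all genes the first by coordinate was taken, so these shares and the next are not fully like for like. The letters CTTTC, searched on the gene's strand from 10 bases before to 15 after the start, were found in 15 of the 64 (23.4%) and in 3.11% of all genes; on either strand the shares were 25% and 5.96%. A window without a tract says only that these letters are not there, not that the mRNA lacks a TOP element. The RefSeq start can lie away from the one used: it was 137 bases from the outermost GENCODE start for Rpl41 and 281 bases for Rplp2. For Rpl4 it was 12 bases, more than the 10 bases searched for the start of a tract.

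Ribosomal protein transcripts took 4.82% ± 0.281 of all counts at day 0 (SD, n = 3) and less in every group at day 7: 3.43% ± 0.557 with D5W (n = 3), 3.63% ± 0.174 with siNeg (n = 4) and 3.35% ± 0.59 with siPD-L1 (n = 4). By library the share was 5.07%, 4.88% and 4.52% at day 0. It was 3.73%, 3.77% and 2.79% with D5W. With siNeg the values were 3.61%, 3.87%, 3.57% and 3.46%, while siPD-L1 gave 2.58%, 3.97%, 3.29% and 3.58%. The 3 day 0 libraries lay above all 11 day 7 libraries, and the 3 day 7 groups overlapped. In bulk tumour RNA, fewer cells with many ribosomes and less of this RNA per cell cannot be told apart.

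Library totals ran from 60.2 M to 85.9 M counts. Cd274, the target of siPD-L1, stood at 17.6 to 31.5 CPM with siNeg and 15.8 to 20.8 CPM with siPD-L1, which overlap (log2 fold change -0.50, adjusted p = 0.515, edgeR), against 11.7 to 12.5 at day 0 and 13.7 to 18.6 with D5W. Some libraries stood apart. D5W replicate 3 had the lowest level of 68 of the 82 tested members and the highest fibroblast marker sum, 666 CPM over 5 genes, against 414 and 70.1 in the other D5W libraries and 77.8 to 106 at day 0. In siPD-L1 replicate 1 the ribosomal RNA-like gene Gm42418 took 9.71% of counts, against 0.271% to 0.656% elsewhere. In day 0 replicate 2 mitochondrially encoded genes took 15.2% of counts, against 2.66% to 7.5% elsewhere, and erythroid markers summed to 864 CPM, against 7.82 to 298. Endothelial marker sums, over 4 genes, were 27.8 to 35.8 CPM at day 0 and 44.8 to 66.8 CPM at day 7. The part of these markers in the results was not tested. Counts against day 0 are also given without day 0 replicate 2, and those for D5W and siNeg without D5W replicate 3. The siPD-L1 count without siPD-L1 replicate 1 is given only together with D5W replicate 3 or within a range.

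**Figure D1:**
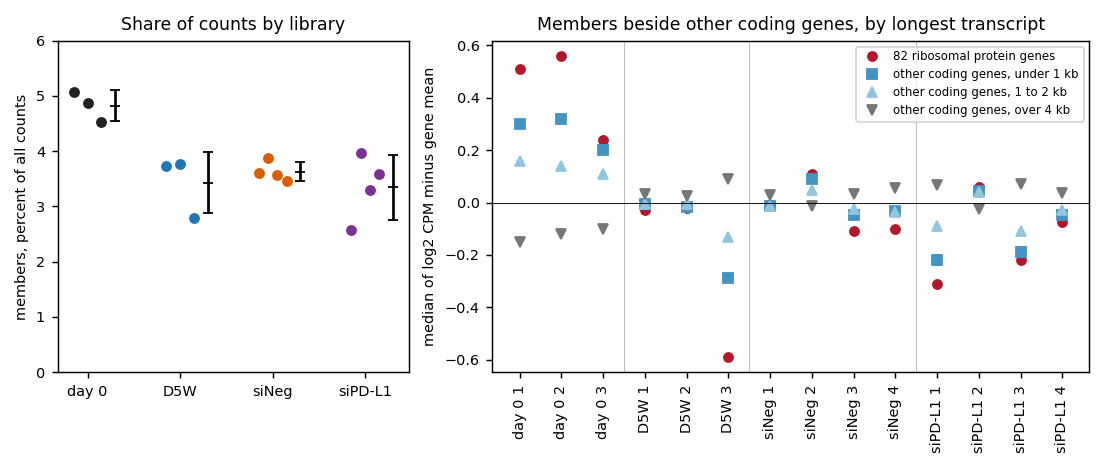
Left, the percent of all counts taken by the ribosomal protein genes in each library (points) with the group mean ± SD (bars). Right, the median over genes of log2 CPM minus the gene's mean over the 14 libraries, for the members and for other coding genes by longest transcript. Members and short genes are high in the 3 day 0 libraries and low in D5W replicate 3 and siPD-L1 replicate 1, and genes over 4 kb run the other way.

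Of the 84 genes, 82 passed the filter on low counts. Rpl24 had 2 counts in all 14 libraries together and Rpl39l, a paralog of Rpl39 used in testis, had 38, and neither was tested. Rps10 (219 counts) and Rpl36al (357 counts) were tested but also near zero. Rpl24, Rps10, Rpl36al and Rpl13a (34500 counts) each overlap another annotated gene on the same strand: Gm28037, RPS10-NUDT3, Gm49383 and Gm45713, which had 180, 268, 886 and 142 counts. How reads shared by overlapping genes were counted is not given in the sources used here, so levels of these 4 are uncertain. Rpl3l, the muscle paralog of Rpl3, had 174 counts. Per kb of median transcript, the mean level over the libraries had a median of 602 CPM per kb over tested members. It was highest for Rplp1 (1770), Rplp0 (1660) and Rps12 (1310), and lowest for Rpl3l (0.161), Rps10 (0.31) and Rpl36al (0.46).

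The first question was how tumours at day 7 after the vehicle differed from tumours at day 0. Of the 82 members, 72 fell and 0 rose with D5W by edgeR's quasi-likelihood test (adjusted p under 0.05 over all 17141 genes), where 9.69% of all tested genes fell and 11.8% rose. The median log2 fold change was -0.61, a level lower by 34.5%, with quartiles of -0.75 and -0.49, against 0.0025 over all tested genes. Of the large-subunit symbols 41 of 48 fell (median -0.59), and of the small-subunit symbols 31 of 34 (median -0.62). The count was 35 without day 0 replicate 1 and 36 without day 0 replicate 2, for which the share of all genes is not given here. Without D5W replicate 3 the count was 46 (median -0.46), where 4.34% of all tested genes fell. Scaled by library totals alone 44 fell, where 2.21% of all genes fell; over all genes that scaling gave 1982 higher and 379 lower, against 2030 and 1661 with TMM.

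The siRNA groups were lower than day 0 as well. With siNeg 51 of 82 members fell and 0 rose (edgeR), where 7.91% of all genes fell and 10.5% rose; the median was -0.46, or 27.3% lower, against 0.0065 over all genes. With siPD-L1 71 fell and 0 rose, where 10.4% of all genes fell and 11.5% rose; the median was -0.55, or 31.5% lower, against 0.014 over all genes. The siNeg count was 13 and 16 without day 0 replicates 1 and 2, 28 and 26 without siNeg replicates 3 and 4, and 72 without D5W replicate 3, where 11.6% of all genes fell. The cause of that last change was not tested. The siPD-L1 count was 39 and 36 without day 0 replicates 1 and 2. With library totals alone the counts were 24 and 60, where 2.99% and 5.78% of all genes fell; for siNeg that scaling gave 1262 genes higher and 512 lower, against 1802 and 1356 with TMM. With D5W replicate 3 and siPD-L1 replicate 1 left out together the 3 counts were 57, 75 and 75, a choice made after seeing the data. The share of all genes is not given here for that fit, or for day 0 and siNeg libraries left out singly. Without D5W replicate 3 alone, 4.34%, 11.6% and 14.8% of all genes fell with D5W, siNeg and siPD-L1. All 3 comparisons share the day 0 libraries, so they are not separate evidence.

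Gene by gene, all 3 day 0 libraries lay above all 11 day 7 libraries in 72 of 82 members, against 11.2% of all tested genes. Against single groups they lay above all D5W libraries in 77 members (22.3% of all genes), above all siNeg libraries in 75 (21.1%) and above all siPD-L1 libraries in 75 (18%). The 10 members that overlapped were Rpl22l1, Rpl3, Rpl36al, Rpl37a, Rpl3l, Rpl6, Rps10, Rps19bp1, Rps23 and Rps27rt, among them the low-count genes Rps10, Rpl36al and Rpl3l. Day 0 replicate 2 was highest in 52 members and replicate 1 in 27.

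**Figure D2:**
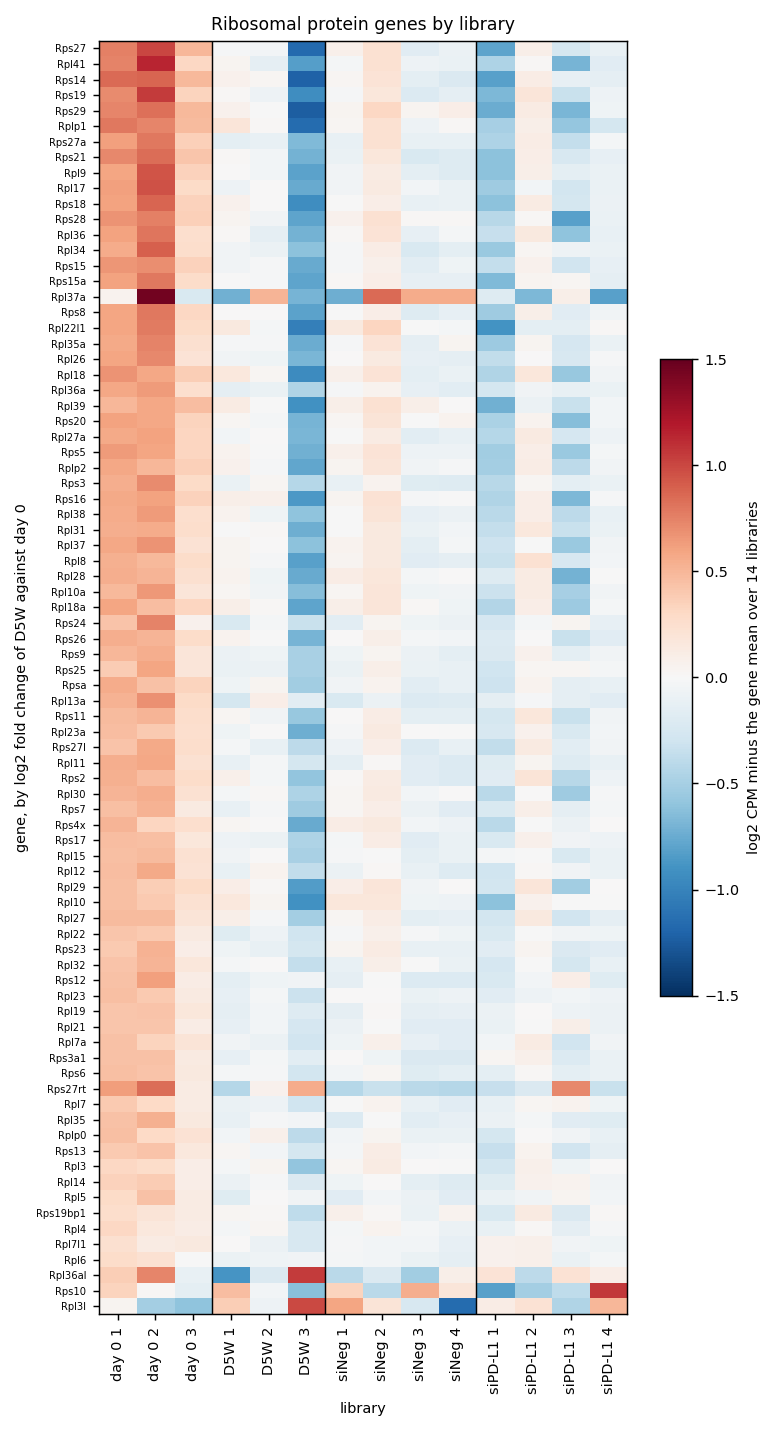
Log2 CPM of each of the 82 tested members minus its mean over the 14 libraries (colour), with genes ordered by the fold change of D5W against day 0 and libraries in columns. Most genes share 1 pattern, high at day 0 and lowest in D5W replicate 3; Rpl37a, Rps27rt, Rps10, Rpl36al and Rpl3l do not follow it.

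The acidic stalk, which recruits elongation factors to the large subunit, fell in each of its 3 genes with D5W and with siPD-L1, and in Rplp0 with siNeg. Rplp0, its base, stood at 1910, 1720 and 1630 CPM at day 0, at 1360, 1470 and 1070 with D5W, at 1360, 1440, 1310 and 1310 with siNeg, and at 1170, 1400, 1350 and 1300 with siPD-L1. No day 7 library reached the lowest day 0 value. The log2 fold changes against day 0 were -0.43 ± 0.11 (SE; adjusted p = 0.0146) with D5W, -0.37 ± 0.103 (adjusted p = 0.0215) with siNeg and -0.43 ± 0.102 (adjusted p = 0.00977) with siPD-L1, by edgeR. Rplp1 and Rplp2, the dimer on that base, had larger values: Rplp1 went from 1340 ± 152 CPM (SD, n = 3) to 723 ± 305 with D5W, with 376 CPM in D5W replicate 3, and Rplp2 from 570 ± 43.3 to 357 ± 103. Both fell with D5W (-0.89, adjusted p = 0.0278; -0.68, adjusted p = 0.0226) and with siPD-L1 (-0.96, adjusted p = 0.0121; -0.67, adjusted p = 0.0152) by edgeR. With siNeg they did not pass (-0.62, adjusted p = 0.085; -0.44, adjusted p = 0.096). The calls for all 3 with D5W and with siPD-L1 ended without day 0 replicate 1, and that for Rplp2 with D5W also without D5W replicate 3. The call for Rplp0 with siNeg ended without day 0 replicate 1 or 2 or siNeg replicate 3 or 4, and all 3 of its calls ended in each of the 3 fits with the length and GC trend removed.

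RPL5 and RPL11, which travel with 5S RNA, fell in all 3 groups but by different amounts. Rpl11 went from 627, 643 and 504 CPM at day 0 to between 359 and 444 CPM in the 11 day 7 libraries, with log2 fold changes of -0.59 ± 0.103 (adjusted p = 0.0019), -0.58 ± 0.0955 (adjusted p = 0.00126) and -0.56 ± 0.0955 (adjusted p = 0.0014) for D5W, siNeg and siPD-L1 by edgeR. Rpl5 went from 789, 881 and 704 CPM to 573, 649 and 626 with D5W, and the fold changes were -0.36, -0.41 and -0.33 (adjusted p = 0.0105, 0.00374 and 0.0106, edgeR). The call for Rpl5 with D5W and with siPD-L1 ended without day 0 replicate 2. RPL26, a large-subunit protein also known to bind p53 mRNA, fell with D5W (-0.76, adjusted p = 0.00692), siNeg (-0.54, adjusted p = 0.0249) and siPD-L1 (-0.67, adjusted p = 0.00751); the siNeg call ended without day 0 replicate 1 or 2 or siNeg replicate 3 or 4. Rpl13a, a subunit also known as a translational silencer in inflammation, went from 47.1, 53 and 40.1 CPM to between 27.3 and 35.3 CPM at day 7 and fell in all 3 groups (-0.61, -0.69 and -0.62; adjusted p = 0.00179, 0.000459 and 0.000812).

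Of the small-subunit genes with roles of their own, Rps6 stood at 976, 962 and 791 CPM at day 0 and at 589 to 731 CPM in the day 7 libraries, with no overlap. Its log2 fold changes were -0.45, -0.43 and -0.44 with D5W, siNeg and siPD-L1 (adjusted p = 0.00746, 0.00645 and 0.00513, edgeR). Rps3, whose protein also acts in DNA repair, went from 1030 ± 148 CPM (n = 3) to 646 ± 101 with D5W (n = 3), 667 ± 52.3 with siNeg (n = 4) and 648 ± 81.1 with siPD-L1 (n = 4), with fold changes of -0.68, -0.63 and -0.68 (adjusted p = 0.00437, 0.00401 and 0.00248). Rpsa, which also encodes a laminin receptor, stood at 1840 ± 136 CPM at day 0 and 1200 ± 237, 1280 ± 86.2 and 1230 ± 126 CPM in the same groups, with fold changes of -0.61, -0.51 and -0.57 (adjusted p = 0.00603, 0.00972 and 0.00478); the siNeg call ended without day 0 replicate 1. Rps19, the gene first linked to Diamond-Blackfan anaemia in humans, had 300, 381 and 231 CPM at day 0 and 186, 175 and 96.3 CPM with D5W. Its fold changes were -1.0, -0.77 and -0.92 (adjusted p = 0.0153, 0.0358 and 0.0139), and each call ended without day 0 replicate 1 or 2.

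The largest falls were of short transcripts. With D5W they were Rps27 (-1.08 ± 0.269, adjusted p = 0.0141), Rpl41 (-1.04 ± 0.239, adjusted p = 0.00971) and Rps14 (-1.01 ± 0.287, adjusted p = 0.0255), by edgeR. Rpl41 encodes the smallest ribosomal protein. It stood at 360, 474 and 266 CPM at day 0, at 220, 196 and 121 with D5W, at 211, 251, 204 and 200 with siNeg, and at 156, 218, 132 and 191 with siPD-L1, and it was also among the 3 largest falls with siNeg (-0.76, adjusted p = 0.0289) and siPD-L1 (-1.07, adjusted p = 0.00462). The other 2 were Rps27rt (-0.96, adjusted p = 0.0232) and Rps19 with siNeg, and Rps27 (-1.0, adjusted p = 0.0127) and Rps29 (-0.98, adjusted p = 0.0207) with siPD-L1. Rps29, a small zinc-binding subunit, stood at 385, 409 and 323 CPM at day 0 and at 98.4 in D5W replicate 3, 138 in siPD-L1 replicate 1 and 144 in siPD-L1 replicate 3, against 222 to 288 in the other day 7 libraries. The calls of Rps29 and Rps14 ended without day 0 replicate 1 or 2. They also ended without D5W replicate 3 or siPD-L1 replicate 1 of the group compared, and with library totals only. With the length and GC trend removed, both D5W calls and the siPD-L1 call of Rps14 ended in each of the 3 fits. The siPD-L1 call of Rps29 and the siNeg call of Rps27rt ended in those by longest transcript and union of exons. Both calls of Rps27 ended without day 0 replicate 2, and that with siPD-L1 also by longest transcript. The siNeg calls of Rpl41, Rps19 and Rps27rt ended without day 0 replicate 1 or 2 or siNeg replicate 1, 3 or 4.

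At the other end, the smallest changes that passed were of genes with transcripts longer than the members' median. With D5W they were Rpl6 (-0.24 ± 0.0823, adjusted p = 0.0478), Rpl7l1 (-0.27 ± 0.073, adjusted p = 0.0184) and Rpl4 (-0.27 ± 0.0896, adjusted p = 0.0427). Rpl4 stood at 2020, 1810 and 1760 CPM at day 0 and at 1380 to 1690 CPM in the day 7 libraries. With siNeg they were Rpl7l1 (-0.22, adjusted p = 0.0339), Rpl6 (-0.25, adjusted p = 0.0357) and Rpl22 (-0.32, adjusted p = 0.0133), and with siPD-L1 Rpl4 (-0.26, adjusted p = 0.0394), Rpl7 (-0.29, adjusted p = 0.0264) and Rpl14 (-0.30, adjusted p = 0.0233). With D5W these calls ended under 17 alternatives for Rpl4, 18 for Rpl6 and 7 for Rpl7l1. With siNeg they ended under 12 for Rpl7l1, which include each day 0 and each siNeg library left out, under 10 for Rpl6, which include the replicate number as a block, and under 3 for Rpl22. With siPD-L1 they ended under 13 for Rpl4, 8 for Rpl7 and 7 for Rpl14. All but the Rpl7l1 call with D5W ended without day 0 replicate 1 and also without replicate 2. Rps3, Rps6, Rpl11, Rpl13a and Rpl36a passed in all 3 comparisons under every alternative run, though the level of Rpl13a is uncertain because of the overlap named above.

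**Figure D3:**
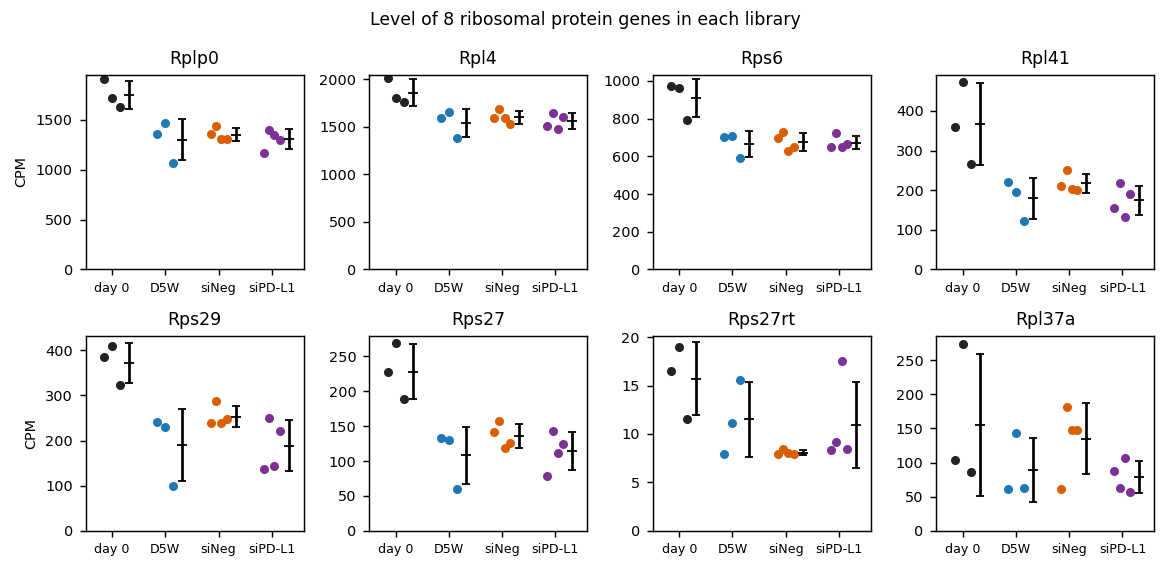
CPM of 8 members in each library (points) with the group mean ± SD (bars). Rplp0, Rpl4, Rps6, Rpl41, Rps29 and Rps27 have every day 0 point above every day 7 point; Rps27rt and Rpl37a do not.

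Paralogs followed their partners in part. RPL22L1 is a paralog of RPL22, which is known to repress its mRNA. Rpl22l1 stood at 51.3, 58.5 and 41.5 CPM at day 0, at 16.8 CPM in D5W replicate 3 and 18.3 in siPD-L1 replicate 1, and lay between 30.7 and 42.6 CPM in the other day 7 libraries. It fell with siPD-L1 (-0.82, adjusted p = 0.0303) and did not pass with D5W (-0.78, adjusted p = 0.0502) or siNeg (-0.45, adjusted p = 0.223), while Rpl22 fell in all 3 groups (-0.50, -0.32 and -0.41; adjusted p = 0.00187, 0.0133 and 0.00343). The Rpl22l1 call ended without siPD-L1 replicate 1 and without day 0 replicate 1 or 2, and the Rpl22 call with siNeg without day 0 replicate 1 or 2. Rps27l, a p53-induced relative of Rps27, fell in all 3 groups (-0.59, -0.49 and -0.52; adjusted p = 0.00602, 0.0105 and 0.0068), with the siNeg call lost without day 0 replicate 2. Rpl36a fell in all 3 (-0.72, -0.55 and -0.62, with adjusted p = 0.000843, 0.00254 and 0.00105 by edgeR). Its paralog Rpl36al, counted at 0.177 to 0.68 CPM, did not pass. The level of Rpl36al is uncertain because it overlaps Gm49383 on the same strand.

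Rpl39 fell with D5W (-0.72, adjusted p = 0.0287) and siPD-L1 (-0.79, adjusted p = 0.0118) and had -0.41 (adjusted p = 0.163) with siNeg. Rps4x fell with D5W (-0.56, adjusted p = 0.0303) and siPD-L1 (-0.48, adjusted p = 0.0424) and had -0.33 (adjusted p = 0.165) with siNeg. The Rpl39 call with D5W ended under 10 alternatives, among them each day 0 replicate and D5W replicate 3 left out. The Rps4x calls ended under 9 alternatives with D5W and 15 with siPD-L1, among the latter each day 0 replicate left out and the replicate number as a block. Rpl3 and Rpl10, which sit near the centre where peptide bonds form, passed in none of the 3. Rpl3 had -0.39, -0.19 and -0.29 (adjusted p = 0.0517, 0.318 and 0.114), and its levels were 1140, 1110 and 981 CPM at day 0 against 609 to 996 CPM at day 7. Rpl10 had -0.53, -0.31 and -0.48 (adjusted p = 0.103, 0.325 and 0.111), with 227 CPM in D5W replicate 3 against 475 and 435 in the other D5W libraries. Rps19bp1, the non-subunit, had -0.30, -0.18 and -0.26 (adjusted p = 0.0816, 0.264 and 0.099).

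Some members cannot be separated from a copy. Rps27rt is a copy of Rps27 on another chromosome, and its annotated transcript matched the Rps27 transcript in 341 of 341 aligned bases. It stood at 16.5, 19 and 11.6 CPM at day 0, at 7.93, 11.1 and 15.6 with D5W, at 7.9 to 8.45 with siNeg, and at 8.37, 9.13, 17.5 and 8.46 with siPD-L1. In D5W replicate 3, where Rps27 was at its lowest (60 CPM), Rps27rt was at its highest in that group. Rps27a, a fusion of ubiquitin to a subunit, fell in all 3 groups (-0.89, -0.62 and -0.76; adjusted p = 0.00386, 0.0167 and 0.00491), with the siNeg call lost without day 0 replicate 1 or 2. The pseudogene Rps27a-ps2, which matched its transcript in 466 of 467 bases, held 132108 counts against 192931 for Rps27a, and it fell too (-0.47, -0.51 and -0.45; adjusted p = 0.0318, 0.0167 and 0.0246). Rps10-ps2 held 2920 counts, more than Rps10 itself. Adding the counts of annotated pseudogenes to the members they copy gave 73, 54 and 72 members lower with D5W, siNeg and siPD-L1. The share of all genes is not given here for that fit, so these counts have no background beside them.

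Members varied together across libraries. The correlation of a member's log2 CPM with the median of the other members had a median of 0.95 over the 14 libraries and 0.92 over the 11 day 7 libraries. These values describe 82 genes that share libraries and depth. Over all libraries 5 members were under 0.5: Rpl3l, Rpl36al, Rps27rt, Rps10 and Rpl37a. Rpl37a ranged from 57.2 to 274 CPM with high and low values in each group, such as 104, 274 and 85.8 at day 0 and 60.6, 181, 148 and 148 with siNeg.

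Within day 7, a further set of members did not share in the low level of D5W replicate 3. Over the 11 day 7 libraries the correlation was -0.16 for Rpl5, -0.01 for Rps12, 0.02 for Rpl35, 0.03 for Rpl6 and 0.2 for Rpl13a. In the 3 D5W libraries Rps12 stood at 573, 604 and 613 CPM, Rpl35 at 352, 376 and 369 and Rpl6 at 845, 859 and 865, while Rps27 stood at 133, 130 and 60 CPM and Rps14 at 294, 289 and 122. This set of 5 genes was chosen after the values were seen, and the level of Rpl13a is uncertain because it overlaps Gm45713 on the same strand.

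Fold changes were also set beside the length of the transcript. The median transcript length was 704 bases over members and 2220 bases over other genes. Members with transcripts under 0.6 kb had a median log2 fold change of -0.74 with D5W (n = 28), those of 0.6 to 0.9 kb -0.60 (n = 30) and those over 0.9 kb -0.48 (n = 24). With siNeg the medians were -0.53, -0.43 and -0.42, and with siPD-L1 -0.70, -0.55 and -0.47. Across the 82 members Spearman's rho between fold change and median transcript length was 0.49, 0.42 and 0.51 for D5W, siNeg and siPD-L1. It was 0.35, 0.24 and 0.38 with the longest transcript and 0.07, 0.054 and 0.11 with the union of exons, so the relation depends on how length is taken.

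Other short coding genes were lower at day 7 too. Coding genes that are no members and whose longest transcript is under 1 kb had a median of -0.38 with D5W (n = 700), -0.28 with siNeg and -0.36 with siPD-L1. Those over 4 kb had 0.18, 0.16 and 0.18 (n = 4846). Taken by median transcript length, which also puts long genes with short annotated isoforms among the short, genes under 1 kb had -0.16, -0.12 and -0.13. Members were also set beside 40 other coding genes with a longest transcript under 1 kb and a mean of at least 100 CPM. Of the 40, 24 fell and 0 rose with D5W (median -0.53), 16 fell and 1 rose with siNeg (-0.33), and 28 fell and 0 rose with siPD-L1 (-0.51). Members with a longest transcript under 1 kb (n = 46) had 39, 26 and 40 lower, with medians of -0.64, -0.48 and -0.62. At the same CPM minimum but by median transcript length, 347 other genes under 1 kb had medians of -0.052, -0.039 and -0.037. Of these 43 rose and 64 fell with D5W, 46 rose and 35 fell with siNeg, and 52 rose and 71 fell with siPD-L1, so the low level of abundant short genes also depends on how length is taken. The CPM minimum and the longest-transcript measure were chosen after seeing the data.

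**Figure D4:**
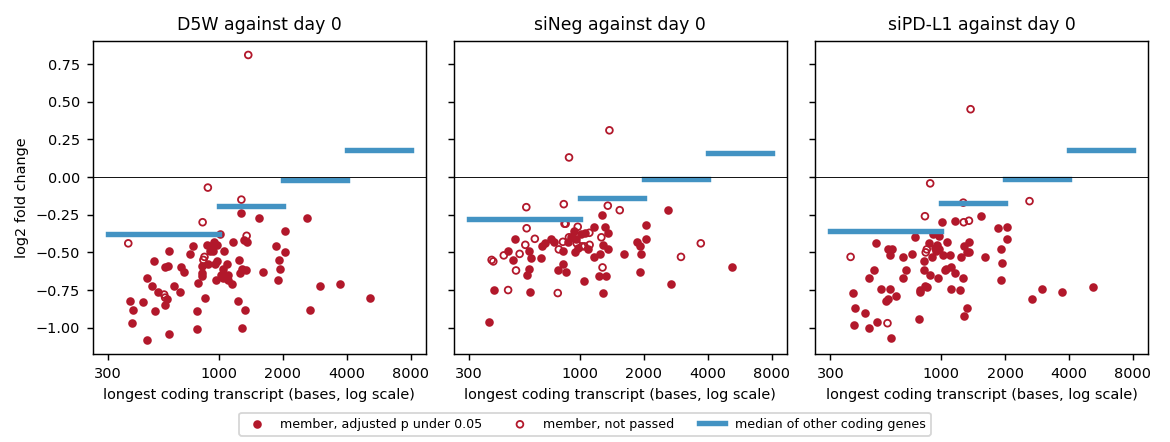
Log2 fold change against day 0 of each tested member (points; filled where adjusted p is under 0.05) by its longest coding transcript on a log axis, with the median of other coding genes in 4 length classes (bars). Most members lie below the bar of their own length class, which is itself -0.38, -0.28 and -0.36 under 1 kb.

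With the trend of each library with transcript length and GC content removed, 57, 42 and 56 members still fell with D5W, siNeg and siPD-L1, and 0 rose. Over all genes 6.51%, 7.58% and 7.2% fell in those fits. The medians were -0.50, -0.40 and -0.47. With the longest transcript as the measure of length 45, 28 and 38 fell (4.63%, 6.52% and 5.73% of all genes) with medians of -0.43, -0.32 and -0.37, and with the union of exons 53, 36 and 47 fell (5.68%, 7.13% and 6.28%). The part of RNA fragmentation or library size selection in the length trend was not tested. Members with a TOP-like tract at the RefSeq start had medians of -0.62, -0.48 and -0.53 with D5W, siNeg and siPD-L1 (n = 35), and those without had -0.59, -0.45 and -0.51 (n = 27).

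The second question was whether the polymer and paclitaxel with either siRNA differed from vehicle at day 7, and whether the siRNA to PD-L1 differed from the control siRNA. No member passed in these 3 comparisons: 0 of 82 by edgeR, 0 by DESeq2 and 0 with an unadjusted edgeR p under 0.05, which 14.9% of all tested genes had for siNeg against D5W, 8.02% for siPD-L1 against D5W and 8.58% for siPD-L1 against siNeg. By adjusted p, 0.0233% of all genes were higher and 0.0817% lower for siNeg against D5W, 0% and 0.0292% for siPD-L1 against D5W, and 0% each way for siPD-L1 against siNeg. By DESeq2 the shares of all genes higher and lower were 1.03% and 1.94%, 0.318% and 0.962%, and 0.273% and 0.209%. The lowest adjusted p over members was 0.335, 0.767 and 0.585 in turn.

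The medians were 0.17 for siNeg against D5W (73 of 82 members above 0), 0.038 for siPD-L1 against D5W (59 above 0) and -0.11 for siPD-L1 against siNeg (66 below 0). Without D5W replicate 3 the first became -0.0043 and the second -0.12. Without siPD-L1 replicate 2, or with library totals alone, the second became -0.036. Without siPD-L1 replicate 1 the third became -0.018, without siNeg replicate 2 it was -0.052 and without siPD-L1 replicate 2 it was -0.18. Log2 differences of single members ran from -0.51 to 0.61 for siNeg against D5W, from -0.35 to 0.15 for siPD-L1 against D5W and from -0.77 to 0.43 for siPD-L1 against siNeg, with standard errors from 0.0632 to 0.501. A p above the threshold does not show equal levels.

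Genes that make, complete or serve the ribosome were set beside its proteins. Fau, whose product is split into a ubiquitin-like protein and RPS30, went from 261, 293 and 200 CPM at day 0 to 104 to 197 CPM at day 7 and fell in all 3 groups (-0.76, -0.55 and -0.65; adjusted p = 0.012, 0.0406 and 0.0157). Rack1, a scaffold on the small subunit, had log2 fold changes of -0.53, -0.44 and -0.58 (adjusted p = 0.0205, 0.0353 and 0.00821). Calls for Fau in all 3 comparisons and for Rack1 with D5W and siNeg ended without day 0 replicate 1 or 2, and that for Rack1 with D5W also without D5W replicate 3.

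Mitochondrial ribosomal proteins, which serve the separate ribosome of mitochondria, were lower as well but by less. Of 74 tested, 37, 31 and 31 fell with D5W, siNeg and siPD-L1 and 0 rose, where 9.69%, 7.91% and 10.4% of all tested genes fell, with medians of -0.29, -0.23 and -0.25 and a median transcript of 1150 bases. Mrpl49, of the large subunit, had -0.57, -0.51 and -0.44 (adjusted p = 0.00109, 0.00121 and 0.00277). Of 21 translation factors and other TOP mRNAs, 7, 4 and 5 fell and 0 rose beside those same shares, with medians of -0.21, -0.16 and -0.16. The elongation factor subunit Eef1b2 had -0.59, -0.50 and -0.49 (adjusted p = 0.00202, 0.00328 and 0.00331).

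Of 31 nucleolar assembly factors 4 rose and 0 fell with D5W (median 0.087), 0 rose and 3 fell with siNeg (-0.048), and 2 rose and 1 fell with siPD-L1 (0.061). Over all tested genes 11.8%, 10.5% and 11.5% rose and 9.69%, 7.91% and 10.4% fell. No count of this list stands clearly above those shares, and the counts of 0 lie below them. The differences from those shares were not tested. Those that rose with D5W were Utp20 (0.43, adjusted p = 0.0138), Rrp12 (0.47, adjusted p = 0.0498), Nop58 (0.32, adjusted p = 0.032) and Heatr1 (0.29, adjusted p = 0.0358), where Rrp12 was named after its values were seen. All 4 calls ended without day 0 replicate 1 or 2, and with the length and GC trend removed by the longest transcript, where Nop58 turned to -0.08 (-0.0023 by the union of exons). That of Rrp12 also ended with the replicate number as a block (0.47). Of 14 genes of RNA polymerase I, which transcribes ribosomal RNA, 2 rose and 3 fell with D5W, 0 rose and 2 fell with siNeg, and 1 rose and 1 fell with siPD-L1, against the same shares of all genes. Its subunit gene Cd3eap fell (-0.48, adjusted p = 0.00655), as did Polr1d, shared with RNA polymerase III (-0.41, adjusted p = 0.0117), and Polr1c (-0.48, adjusted p = 0.0214). Taf1a (0.76, adjusted p = 0.0129) and Polr1a (0.40, adjusted p = 0.0218) rose. Polr1c and Polr1a were named after their values were seen.

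Of 17 tested genes of growth control 7 rose and 2 fell with D5W, 7 rose and 1 fell with siNeg, and 6 rose and 2 fell with siPD-L1, where 11.8%, 10.5% and 11.5% of all genes rose and 9.69%, 7.91% and 10.4% fell. The list had a median transcript of 3250 bases. Among other coding genes, by median transcript length, 665 of 5159 of 2 to 4 kb and 695 of 2540 over 4 kb rose with D5W. The part of length in the counts of this list was not tested. Ddit4, a stress-induced inhibitor of mTOR, stood at 191, 175 and 167 CPM at day 0 and at 41.2 to 79.9 CPM in all day 7 libraries, and fell in all 3 groups (-1.56, -1.28 and -1.46; adjusted p = 0.000129, 0.000261 and 9.64e-05). Deptor, another mTOR inhibitor, rose by 0.71, 0.70 and 0.78 (adjusted p = 0.000933, 0.000621 and 0.000296), and Mxd1, an antagonist of MYC, rose by 0.53, 0.59 and 0.57 (adjusted p = 0.00591, 0.00214 and 0.00246). Ddit4, Deptor and Mxd1 passed in all 3 comparisons under every alternative run.

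**Figure D5:**
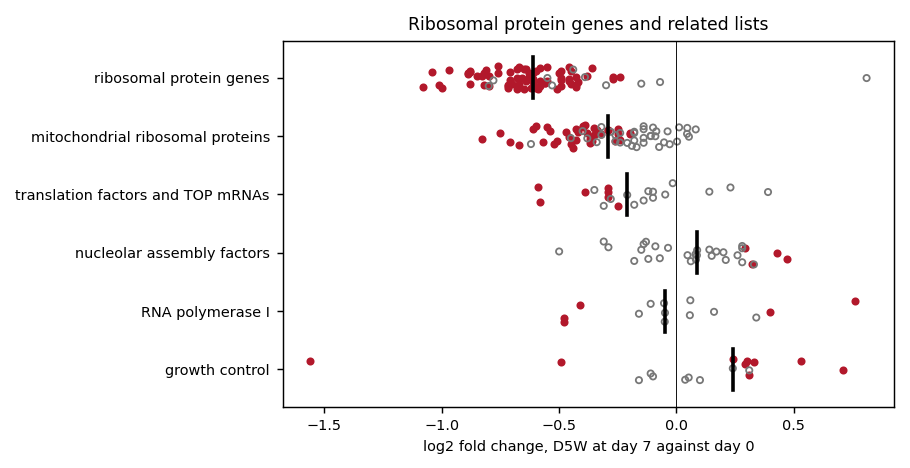
Log2 fold change of D5W against day 0 for the 82 tested ribosomal protein genes and for 5 related lists. Each point is a gene, filled where adjusted p is under 0.05, and the vertical bars are list medians: -0.61, -0.29, -0.21, 0.087, -0.05 and 0.24 from top to bottom.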

How the data were processed

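Read counts per gene of 14 libraries were analysed. Per the labels' protocols, RNA was isolated with a Qiagen kit and libraries were stranded Illumina libraries. Per the submitters' processing notes, FastQC 0.11.3, STAR, featureCounts and edgeR were used with GRCm38; the sources used here do not give other versions, the annotation release or the strand setting. The values are raw counts as deposited by the authors, which are whole numbers, and every value here was computed from them. Symbols, positions and transcript lengths came from GENCODE M21, which named 37386 of 37409 IDs. Rpl13 and the paralogs Rpl10l and Rps4l are not analysed here.

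Tests used R 4.3.3 and edgeR 4.0.16: TMM scaling, filterByExpr by group, 1 robust quasi-likelihood fit of all 14 libraries and Benjamini-Hochberg adjustment over 17141 genes at 0.05. CPM is counts per 1 M TMM-scaled counts; log2 values for spread and rank used a prior count of 2. The biological coefficient of variation was 16.6%. The fit was also run on counts simulated from its own model, which cannot show whether the calls hold in these data. Length and GC trends were removed by spline offsets (4 degrees of freedom) fitted per library on coding genes that are no members. Alternatives, listed with their effects in the closing section, included DESeq2 1.42.0; the longest transcript and the union of exons as length in that trend were chosen after seeing the data.

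Named members are the 3 largest and 3 smallest changes among those that passed in each comparison, the 3 highest and lowest levels per kb, genes with roles of their own, and paralogs with their partners; from each related list, up to 3 genes with the smallest p. Further ones are said to be chosen after their values were seen. The members and lists were chosen with earlier results of these data known.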

Additional observations from a re-analysis of the deposited data

Results flagged for a closer look

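Of 72 groups of 4 libraries examined (named members and the percent of counts, in siNeg and siPD-L1), 4 held a library whose gap to its nearest neighbour, over the range of the group, was above Dixon's critical value of 0.829. Chance gives about 1 in 20. Rps27a was at 213 CPM in siNeg replicate 2, against 168 to 169 in the other 3. Rpl10 was at 276 CPM in siPD-L1 replicate 1, against 421 to 444. Rps27rt was at 17.5 CPM in siPD-L1 replicate 3, against 8.37 to 9.13. Rps10 was at 0.41 CPM in siPD-L1 replicate 4, against 0.112 to 0.152, on 219 counts in all libraries together.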

How the results depend on the processing

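Under the alternatives run no member rose, and the medians of the 3 comparisons with day 0 kept their sign. The counts of members lower with D5W, siNeg and siPD-L1 against day 0 were 44, 24 and 60 with library totals only, and 40, 29 and 47 with no low-count filter, where 33474 genes were tested. They were 45, 28 and 38 with the length and GC trend removed by the longest transcript and 53, 36 and 47 by the union of exons. With only the 2 groups compared they were 49, 78 and 72. The share of all genes is not given here for no low-count filter, for the 2 groups only or for the replicate block below. Those counts therefore show how the calls move, without a background beside them. Leaving out 1 library at a time gave 35 to 74 for D5W, 13 to 72 for siNeg and 36 to 75 for siPD-L1, with medians of -0.72 to -0.46, -0.55 to -0.41 and -0.68 to -0.50. Within day 7 the count was 0 under each setting, and the medians ran from -0.0043 to 0.26 (siNeg against D5W), -0.12 to 0.14 (siPD-L1 against D5W) and -0.18 to -0.018 (siPD-L1 against siNeg). Another setting left out mitochondrially encoded genes and those with RNA that resembles ribosomal RNA (Gm42418, Gm26917, Cmss1, Gm26561, Cdk8, Lars2 and Gphn). Members then took 5.34% of counts at day 0, 3.59% with D5W, 3.87% with siNeg and 3.68% with siPD-L1. The share of all counts, with 1 library left out, was 4.70% to 4.98% at day 0 and 3.26% to 3.75% with D5W. It was 3.55% to 3.68% with siNeg and 3.15% to 3.61% with siPD-L1. Nop58 with D5W went from 0.32 to -0.08 (longest transcript) and -0.0023 (union of exons). The causes were not tested. DESeq2 called 75, 64 and 72 members lower, where 12.9%, 10.5% and 13.8% of all genes were lower.

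The labels give the groups shared replicate numbers and state no pairing. Of 19 same-numbered pairs of libraries, 6 had deviations correlated above 0.1, and 5 of 14 libraries correlated best with their own number. No rate expected without pairing was computed, so these values cannot decide whether a number marks a pair or a batch. With the replicate block the counts were 75, 58 and 71, and the medians -0.62, -0.46 and -0.55. The members with counts near zero were Rpl3l, Rps10, Rpl36al, Rpl39l and Rpl24. Of these, Rps10, Rpl36al and Rpl24 overlap another gene on the same strand, so their levels are uncertain whatever the depth.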
